A study of Mus musculus with 6 samples.

Results

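CC chemokines are small secreted proteins that attract leukocytes, and 10 of their genes are described here in cultured mouse macrophages: Ccl2, Ccl3, Ccl4, Ccl5, Ccl6, Ccl7, Ccl9, Ccl12, Ccl17 and Ccl22. They were taken by symbol from the 21959 genes of the deposited table, and each symbol matched 1 gene. The cells were wild-type bone marrow-derived macrophages (BMDMs), primary macrophages grown from mouse bone marrow in culture. They were kept for 24 h in a 1:1 mixture of fresh complete medium and medium that macrophages of the lung alveoli (alveolar macrophages) had conditioned for 48 h. In 3 libraries that medium came from HTR2C- alveolar macrophages (N1, N2 and N3, HTR2C-negative medium), and in 3 from HTR2C+ ones (P1, P2 and P3, HTR2C-positive medium). HTR2C is the serotonin receptor 2C, and the alveolar macrophages came from mice of 8 to 12 weeks. Both groups thus received conditioned medium, and no library without it was analysed here. The sources used here do not give the age of the bone marrow donors, any pooling of animals or the factor that differentiated the BMDMs. The labels number the samples without saying whether a number is a separate culture, animal or batch of medium, so p-values measure only how far these samples spread, which may be technical. RNA was measured in bulk, where fewer cells that express a gene and less RNA per cell cannot be told apart.

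CC chemokines carry a pair of adjacent cysteines near the amino end and act through G protein-coupled receptors on the cells they recruit. Macrophages are a main source of them: tissue and bone marrow-derived macrophages that meet microbial products, cytokines or interferon transcribe inflammatory members such as Ccl2 to Ccl5 through NF-kB and interferon-regulated factors. Ccl2, Ccl7 and Ccl12 draw monocytes through CCR2. Ccl3, Ccl4 and Ccl5 attract T cells and monocytes, and Ccl3 and Ccl5 act on CCR1, the receptor on which the mouse chemokines Ccl6 and Ccl9 act too. Ccl17 and Ccl22 are the ligands of CCR4, which marks T helper 2 and regulatory T cells, and are best known from dendritic cells and alternatively activated macrophages.

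The 6 libraries held 12843971 to 16031723 counts. The macrophage label was borne out by its markers: all 9 fixed macrophage markers were expressed, with a summed level of 24293 to 26255 CPM (counts scaled to library size) in HTR2C-negative and 22960.3 to 25744 CPM in HTR2C-positive medium. Most of that sum was Lyz2 (mean 17320 CPM), while Mertk and Mrc1 had means of 25.7 and 34.6 CPM. Summed markers of most other cells were far lower. The summed level of 9 T and NK cell markers was 0.707 to 1.24 and 0.966 to 3.57 CPM, with Klrb1c at 0 counts throughout, and that of 4 B cell markers 0.873 to 1.94 and 1.87 to 2.71 CPM. The 8 dendritic cell markers summed to 3.98 to 9.27 and 7.07 to 9.92 CPM, with none of them at 0 in all libraries. Of these, Flt3 had 0 counts in N1, N2 and N3 and 8, 2 and 1 counts in P1, P2 and P3. Others went the other way: Clec9a had 0, 3 and 11 counts in N1 to N3 against 3, 0 and 0 in P1 to P3, and Dpp4 4, 11 and 0 against 3, 3 and 1. The 8 neutrophil markers summed to 687 to 869.9 and 854 to 1091 CPM, mostly S100a8, while Ly6g and Cxcr2 had 0 counts in every library. The 5 mast cell and basophil markers summed to 11.6 to 14.8 and 8.64 to 11.8 CPM (Mcpt4 at 0), the 6 of fibroblasts and endothelium to 53.3 to 64.0 and 54.3 to 65.2 CPM, and the 6 of alveolar macrophages to 133 to 138 and 129 to 148 CPM. N2 and P1 correlated most closely of all pairs although they come from different groups (r = 0.980 across genes, which are not independent replicates). Actb took only 8.14% and 7.03% of their counts against 10.3% to 13.5% in the others. By a chi-square of the counts per degree of freedom, where lower is closer, they were not the closest pair. It was 8.62 for N1 and N3, 31.2 for P2 and P3, 36.1 for N2 and P3 and 36.2 for N2 and P1. Results whose call or sign changes without N2 and P1 are given both ways. Leaving out libraries picked for their likeness across the groups can by itself raise the number of genes called.

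The chemokine genes lie in 3 groups on the chromosomes (GRCm39, positions from the deposited table). Ccl2, Ccl7 and Ccl12 lie on the plus strand of chromosome 11 between 81926397 and 81994226, with Ccl11 between Ccl7 and Ccl12. Ccl5, Ccl9, Ccl6, Ccl3 and Ccl4 follow in that order on the same chromosome between 83416604 and 83555509, where Ccl4 alone is on the plus strand. Ccl22 and Ccl17 lie on the plus strand of chromosome 8 between 95472218 and 95538664, with Cx3cl1 between them. Members of one group resemble each other in sequence, and the sources used here do not say how reads that map to several places were counted. Counts of Ccl2, Ccl7 and Ccl12, of Ccl3 and Ccl4 and of Ccl6 and Ccl9 are therefore uncertain where reads could be assigned to either gene.

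Levels between genes were compared as FPKM, which divides a count by gene length and library total. CC chemokine transcripts were among the most abundant in these macrophages. By mean FPKM over the 6 libraries, Ccl5 ranked 5 and Ccl4 ranked 6 among all 21959 genes, Ccl3 ranked 16 and Ccl7 ranked 19. Together the 10 genes took 2.02%, 1.85% and 2.15% of the counts of N1, N2 and N3, and 2.24%, 2.79% and 2.22% of P1, P2 and P3. The shares of the HTR2C-positive libraries all lay above those of the HTR2C-negative ones. On the scale of the statistical comparison, which uses TMM factors (edgeR's correction for libraries in which a few genes take many reads), the summed level was 22929, 17424 and 23151 CPM against 19841, 28972 and 20808 CPM, and there the groups overlapped.

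**Figure D1:**
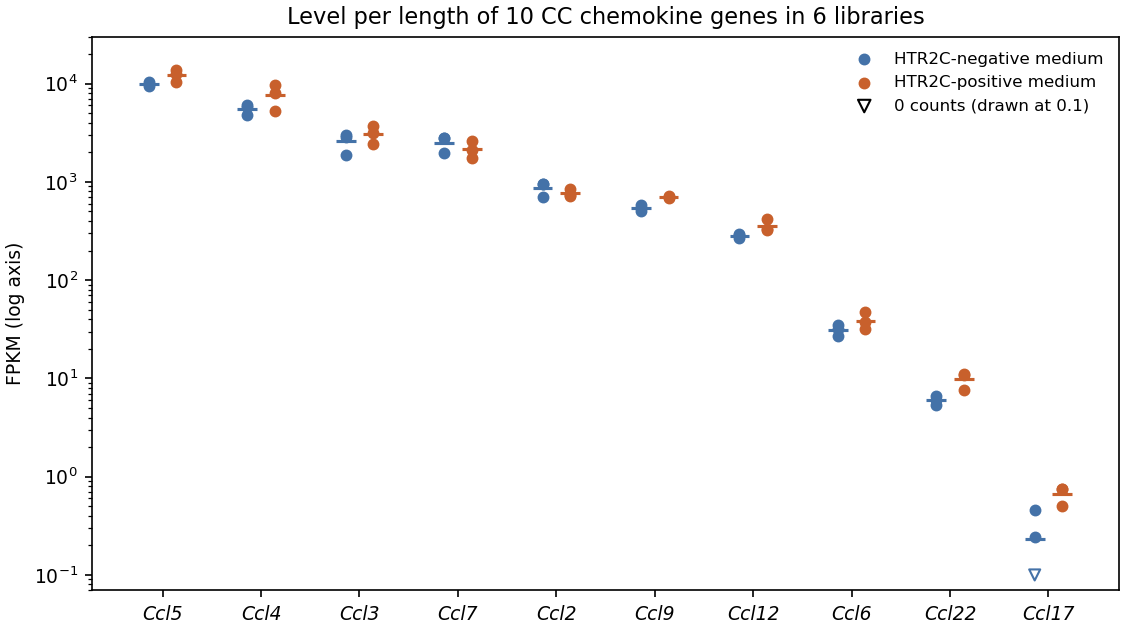
FPKM of each CC chemokine gene (log axis) in 3 libraries with HTR2C-negative medium (blue) and 3 with HTR2C-positive medium (orange), ordered by the mean over all libraries, with a bar at each group mean and an open triangle for a count of 0. The genes span from Ccl5, at 9519 FPKM or more in every library, to Ccl17, at 0.751 FPKM or less.

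The order from high to low was Ccl5, Ccl4, Ccl3, Ccl7, Ccl2, Ccl9, Ccl12, Ccl6, Ccl22 and Ccl17. The mean FPKM over the 6 libraries was 11060 for Ccl5, 6577 for Ccl4, 2843 for Ccl3, 2328 for Ccl7 and 817 for Ccl2. It was 625 for Ccl9, 321 for Ccl12, 35.1 for Ccl6, 7.92 for Ccl22 and 0.448 for Ccl17. For most neighbours in this order the upper gene exceeded the lower one in 6 of 6 libraries, and the exception was Ccl3 over Ccl7, which held in 5. The ranges over the libraries overlapped for 3 pairs of neighbours: Ccl5 and Ccl4, Ccl3 and Ccl7, and Ccl2 and Ccl9. Ccl5 alone made up 41.6% to 51.8% of the summed FPKM of the 10 genes, and Ccl4 21.7% to 31.6%. The monocyte attractants Ccl7 and Ccl2 took a smaller part of that sum in each HTR2C-positive library: for Ccl7 12.2%, 9.75% and 11.5% in N1 to N3 and 6.87%, 8.25% and 8.86% in P1 to P3, and for Ccl2 4.15%, 3.51% and 3.96% against 2.84%, 2.68% and 3.09%. For the other 8 genes the shares of the groups overlapped. A gene's part of the sum also falls when other members rise, and no share over all genes exists for this measure. In TMM-scaled CPM the groups overlapped for both Ccl7 and Ccl2 (edgeR unadjusted p = 0.153 and 0.130).

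Genes of one cluster could differ widely in level. Mean FPKM was 17.8-fold higher for Ccl9 than for Ccl6, its neighbour at 9.25 kb, and 17.7-fold higher for Ccl22 than for Ccl17 at 58.8 kb. The 250 bases before the start site of these 4 genes are shown so that the genes of each pair can be compared, from RefSeq on GRCm38.p6 (not the build of the table) and 5′ to 3′ in the direction of transcription. RefSeq's promoter table held 6 of the 10 genes, and Ccl2, Ccl4, Ccl5 and Ccl7 were not matched in it. Capitals mark matches on either strand to any of 4 motifs: the TATA box TATAAA, the AP-1 motif TGANTCA, the C/EBP motif TTNNGNAA and the kappa-B motif of NF-kB.
Ccl9: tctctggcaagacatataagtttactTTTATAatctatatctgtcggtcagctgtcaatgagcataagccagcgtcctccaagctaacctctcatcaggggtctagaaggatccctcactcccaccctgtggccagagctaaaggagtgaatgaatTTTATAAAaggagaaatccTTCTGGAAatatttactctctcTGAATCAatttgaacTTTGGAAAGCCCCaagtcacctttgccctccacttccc
Ccl6: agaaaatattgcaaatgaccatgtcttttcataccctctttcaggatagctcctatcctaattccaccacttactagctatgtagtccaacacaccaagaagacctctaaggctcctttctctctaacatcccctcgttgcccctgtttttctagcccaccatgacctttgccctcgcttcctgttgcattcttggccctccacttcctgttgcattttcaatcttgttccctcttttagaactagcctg
Ccl22: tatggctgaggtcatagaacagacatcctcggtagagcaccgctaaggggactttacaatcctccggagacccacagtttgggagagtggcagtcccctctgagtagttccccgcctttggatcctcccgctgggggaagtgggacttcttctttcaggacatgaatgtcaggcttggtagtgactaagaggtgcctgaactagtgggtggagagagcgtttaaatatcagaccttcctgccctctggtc
Ccl17: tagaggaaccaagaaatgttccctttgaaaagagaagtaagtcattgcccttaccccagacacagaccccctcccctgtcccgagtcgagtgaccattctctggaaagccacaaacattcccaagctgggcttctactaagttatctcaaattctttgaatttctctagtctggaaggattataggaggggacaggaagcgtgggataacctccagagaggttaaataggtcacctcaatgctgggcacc
They lie at chr11:83578637-83578886 on the minus strand (Ccl9), chr11:83593088-83593337 on the minus strand (Ccl6), chr8:94745434-94745683 on the plus strand (Ccl22) and chr8:94810203-94810452 on the plus strand (Ccl17). The longest run that Ccl9 and Ccl6 share is 13 bases, gccctccacttcc, and that of Ccl22 and Ccl17 is 7 bases. Ccl9 held all 4 motifs, with 3 TATA box matches (2 of them overlapping), an AP-1 match TGAATCA 53 to 47 bases before the start and a kappa-B match GGAAAGCCCC 35 to 26 bases before it, which overlaps a C/EBP match. The windows of Ccl6, Ccl22 and Ccl17 held none of these letters. Of the other 2 matched genes, Ccl12 had a TATA box 31 to 26 bases before its start and Ccl3 a C/EBP match 100 to 93 bases before it. Of all 32851 promoters of the table, 12.4% held the TATA box within the same window, 6.75% the AP-1 motif, 36.8% the C/EBP motif and 7.25% the kappa-B motif.

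The comparison asked whether medium from HTR2C-positive alveolar macrophages changes the transcripts of BMDMs relative to medium from HTR2C-negative ones. None of the chemokine genes passed the correction over all genes. Of the 10, 9 had enough counts to be tested, and 0 of 9 had an adjusted p under 0.05 in edgeR's quasi-likelihood test, where 0% of all 10177 tested genes passed (smallest adjusted p 0.0616). DESeq2 likewise called 0 of 9, against 3.87% of all genes. At an unadjusted p below 0.05 edgeR gave 1 gene of 9, Ccl22, with higher values in HTR2C-positive medium, against 7.90% of all tested genes in that direction and 16.6% in either. The groups did not overlap in 1 of 9, again Ccl22, against 22.3% of all genes. The log2 fold change (HTR2C-positive minus HTR2C-negative medium) was above 0 in 7 of 9, against 52.1% of all genes, and its median was 0.17 against 0.02 over all genes. Both genes below 0, Ccl2 and Ccl7, are neighbours on the chromosome. The median rested on P2: it was 0.03 without that library and 0.31 without P1.

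**Figure D2:**
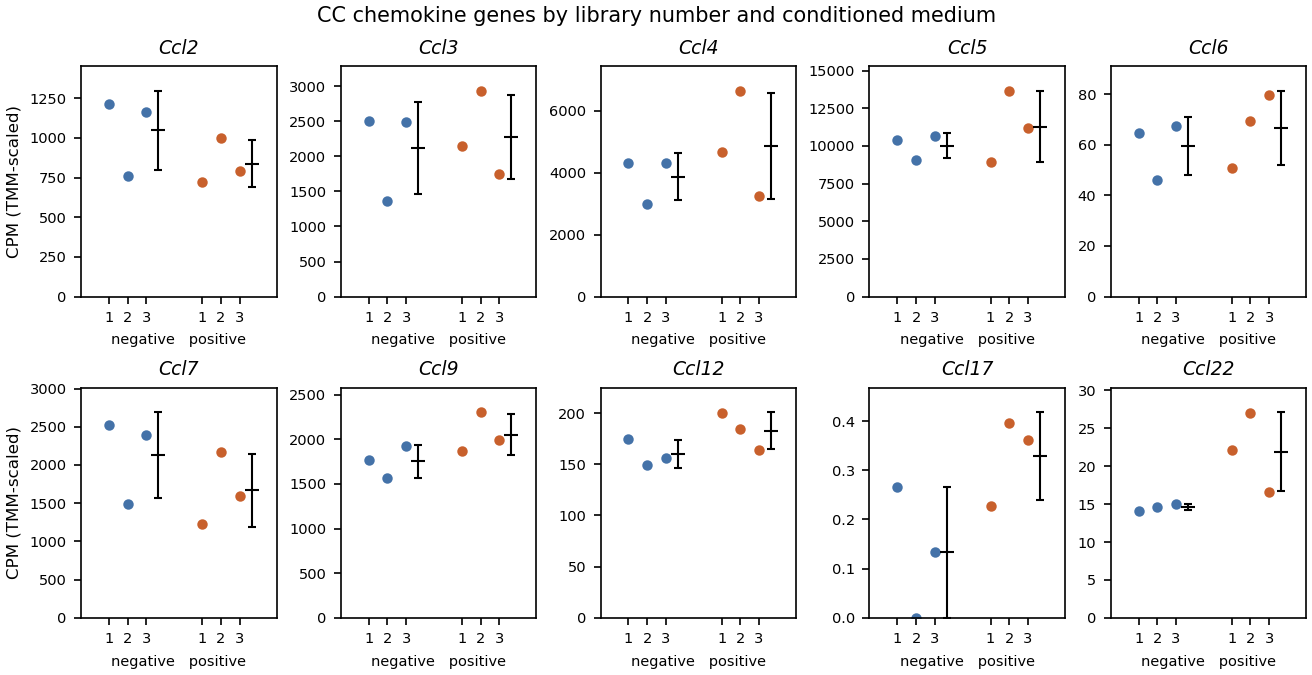
TMM-scaled CPM of the 10 CC chemokine genes in each library, numbered 1 to 3 within HTR2C-negative (blue) and HTR2C-positive (orange) medium, with group means ± SD in black and each axis starting at 0. The groups are apart for Ccl22 and overlap for the other 9 genes.

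Ccl22, a ligand of CCR4 (ENSMUSG00000031779), had the largest fitted log2 fold change of the 9 tested genes. It was at 14.1, 14.6 and 15.0 CPM (160, 213 and 223 counts) in N1, N2 and N3, and at 22.2, 27.0 and 16.5 CPM (389, 408 and 274 counts) in P1, P2 and P3. The HTR2C-negative libraries were nearly alike and every HTR2C-positive library lay above them, P3 by little, as in 10.9% of all tested genes. Group means were 14.6 ± 0.424 and 21.9 ± 5.22 CPM (SD, n = 3), a log2 fold change of 0.59 (SE 0.21, 95% interval 0.14 to 1.03, edgeR unadjusted p = 0.0144, adjusted p = 0.192). Over the 6 leave-one-out fits the log2 fold change was 0.41 to 0.76, and it was 0.41 without P2, where the unadjusted p of 0.0824 missed 0.05. Of the neutrophil markers given above, 6 of 6 tested had a log2 fold change above 0, as had both dendritic cell markers tested, Zbtb46 at 0.04 (SE 0.65) and Ccr7 at 0.31 (SE 0.35). The part of these markers in the difference was not tested. Ccl17, the other CCR4 ligand, was barely detected, with 3, 0 and 2 counts in N1, N2 and N3 and 4, 6 and 6 counts in P1, P2 and P3. The 0 counts in N2 allow up to 0.206 CPM. Without a count filter its log2 fold change was 1.32 with an SE of 1.52 (edgeR unadjusted p = 0.385), so no difference was detectable at this depth.

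The macrophage inflammatory chemokines Ccl5, Ccl4 and Ccl3 were abundant in both groups. The coefficient of variation over replicates was 8.46% and 20.9% for Ccl5, 19.7% and 35.3% for Ccl4 and 31.03% and 26.6% for Ccl3 (HTR2C-negative and HTR2C-positive medium). Ccl5, which attracts T cells and monocytes (ENSMUSG00000035042), was at 10370.3, 9048 and 10628 CPM in N1 to N3 and 8933, 13648 and 11198 CPM in P1 to P3. P1 was the lowest of all 6 libraries and P2 the highest, so the groups overlapped, with a log2 fold change of 0.17 (SE 0.18, 95% interval -0.23 to 0.57, edgeR adjusted p = 0.680). It was 0.33 without P1, 0.11 without N2 and 0.0058 without P2. The summed T and NK cell markers, cells that also make Ccl5, stayed at 3.57 CPM or less. Ccl4 (ENSMUSG00000018930) was at 4303, 2989 and 4311 CPM against 4669, 6637 and 3229.9 CPM. P1 and P2 lay above all HTR2C-negative libraries and P3 below 2 of them, and the log2 fold change of 0.33 (SE 0.24, edgeR adjusted p = 0.526) was 0.03 without P2, 0.17 without N2 and 0.56 without P3, where the unadjusted p was 0.0395.

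Ccl3 (ENSMUSG00000000982), which encodes the macrophage inflammatory protein closest to Ccl4 in function, was at 2506, 1361 and 2496 CPM and at 2149, 2932 and 1742 CPM. Its values followed the library more than the medium: N2 was the lowest and P2 the highest. The log2 fold change of 0.10 (SE 0.24, edgeR adjusted p = 0.868) turned to -0.13 without N2 and to -0.13 without P2, and was -0.08 without N2 and P1. The ratio of Ccl3 to Ccl4 in FPKM was 0.502, 0.392 and 0.499 in N1 to N3 and 0.397, 0.381 and 0.465 in P1 to P3, with overlapping groups (exact permutation test on log2 ratios, two-sided, p = 0.3, adjusted 0.6). This and 3 other ratios of genes of one cluster were compared, and 3 libraries against 3 cannot give an exact p below 0.1.

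The fitted differences of the CCR2 ligands did not all have one sign, and with all 6 libraries none passed the correction. Ccl2, a main monocyte attractant (ENSMUSG00000035385), was at 1216, 763 and 1164 CPM in N1 to N3 and at 722, 1001 and 792 CPM in P1 to P3. N1 and N3 lay above all HTR2C-positive libraries, while N2 lay between P1 and P3. The log2 fold change was -0.32 (SE 0.20, 95% interval -0.75 to 0.11, edgeR adjusted p = 0.436). Ccl7, the gene next to it (ENSMUSG00000035373), showed the same order of libraries within each group, at 2517, 1489.7 and 2387 CPM against 1231, 2170.04 and 1599 CPM, with a log2 fold change of -0.35 (SE 0.23, edgeR adjusted p = 0.467). Without N2 alone they were -0.50 and -0.55, at unadjusted p = 0.0158 and 0.0232, and without P1 -0.21 and -0.16. Without P2 Ccl7 was at -0.59 (unadjusted p = 0.0321). Without both N2 and P1 the log2 fold changes were -0.39 for Ccl2 and -0.36 for Ccl7. Ccl2 then passed the correction over all genes (adjusted p = 0.0454), where 10.9% of all 10156 genes tested passed too, so 1 of 9 chemokine genes did. N2 and P1 were picked from these data for their likeness across the groups, which favours such calls.

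Within a library Ccl7 and Ccl2 kept close to one ratio. Ccl7 was at 2.94, 2.78 and 2.92 times the FPKM of Ccl2 in N1 to N3 and at 2.42, 3.08 and 2.87 times in P1 to P3 (exact permutation p = 0.8, adjusted 0.9). Ccl12 (ENSMUSG00000035352), the mouse gene nearest to Ccl2 in function and at the far end of the cluster, had a fitted difference of the other sign. It was at 175, 149 and 156 CPM in N1 to N3 and at 199.8, 185 and 164 CPM in P1 to P3, where only N1 overlapped with the HTR2C-positive range. The log2 fold change was 0.19 (SE 0.15, adjusted p = 0.545), and 0.088 without N2 and P1. The ratio of Ccl12 to Ccl2 in FPKM was 0.305, 0.414 and 0.285 against 0.587, 0.391 and 0.438, a mean log2 difference of 0.49 with N2 inside the HTR2C-positive range (exact permutation p = 0.2, adjusted 0.6).

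The CCR1 ligands Ccl9 and Ccl6, which mouse myeloid cells express constitutively, did not pass the correction. Their fitted differences were larger with the GC and length trend removed, as given below. Ccl9 (ENSMUSG00000019122) was at 1762, 1564 and 1927 CPM in N1 to N3 and at 1864, 2302 and 1987 CPM in P1 to P3. Its coefficient of variation over replicates was 10.4% and 11.03%, and only P1 and N3 crossed. The log2 fold change was 0.23 (SE 0.16, 95% interval -0.12 to 0.57, adjusted p = 0.495), and 0.14 without P2. Ccl6 (ENSMUSG00000018927) was at 64.9, 46.2 and 67.5 CPM against 50.8, 69.3 and 79.8 CPM, with a log2 fold change of 0.16 (SE 0.20, edgeR adjusted p = 0.716), which was 0.02 without N2, 0.02 without P3 and 0.34 without P1. Ccl6 stood at 0.0624, 0.0501 and 0.0594 of the FPKM of Ccl9 in N1 to N3 and at 0.0462, 0.0511 and 0.0681 in P1 to P3, with overlapping groups (exact permutation p = 0.9, adjusted 0.9).

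Much of the spread was shared between the genes of a library. N2 was the lowest HTR2C-negative library for 8 of 9 tested genes, Ccl22 being the exception, and its median difference from the mean of the 6 libraries was -0.28 on the log2 scale. P2 was the highest HTR2C-positive library for 7 of 9, all but Ccl6 and Ccl12, with a median difference of 0.29. P1 was the lowest of its group for 5 genes and P3 for 4. The share of Actb in the counts was 13.5% in P2, the highest, and 8.14% in N2 and 7.03% in P1, the lowest, and its part in this pattern was not tested.

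**Figure D3:**
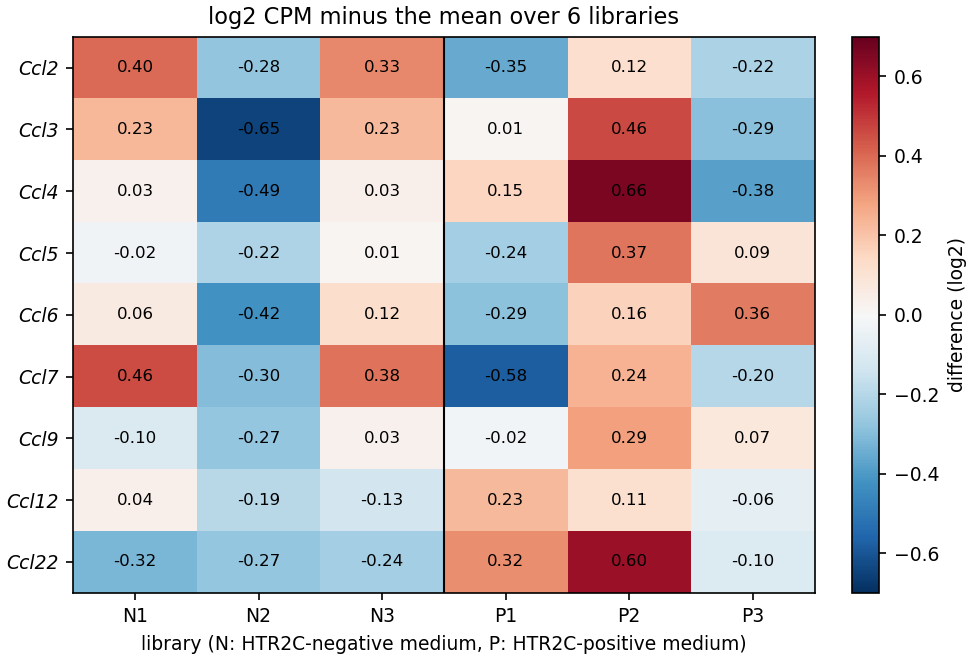
Difference of each tested gene's log2 CPM from its mean over the 6 libraries, by library, with the HTR2C-negative libraries left of the line. The column of N2 is below 0 for every gene and that of P2 above 0 for every gene, while Ccl22 is below 0 in N1, N2 and N3.

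The scaling of the libraries mattered to how many genes differed. With total counts alone, 5 of 9 chemokine genes (Ccl4, Ccl5, Ccl9, Ccl12 and Ccl22) had higher values with HTR2C-positive medium (unadjusted p below 0.05), against 11.3% of all genes, and 0 had lower values, against 3.85%. None of them passed the correction (0% of all genes). The groups of 4 of 9, Ccl5, Ccl9, Ccl12 and Ccl22, then did not overlap, with 21.3% of all genes in either direction and 14.6% in that one. That scaling moved the median log2 fold change of all genes from 0.02 to 0.16 and that of the chemokine genes from 0.17 to 0.31, so relative to all genes the chemokine median was 0.15 in both. Ccl2 and Ccl7 stayed below 0, at -0.18 and -0.22.

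The GC content of transcripts, on which read counts can depend library by library, differed between the chemokine genes. Ccl9, Ccl12 and Ccl7 had 42.1%, 42.1% and 42.9% GC, at percentiles 14.3, 14.2 and 17.8 of tested genes, whereas Ccl5 had 52.8%, at percentile 71.3. When the trend of every library with GC content and length was removed, Ccl9 had a log2 fold change of 0.53 (unadjusted p = 0.00489), Ccl6 one of 0.42 (unadjusted p = 0.0414) and Ccl22 one of 0.56 (unadjusted p = 0.0148). These 3 of 9 genes stood against 4.34% of all genes higher at that threshold, 0 of 9 were lower, against 5.46%, and 0 of 9 passed the correction (0% of all genes). Ccl5 went to -0.0094, Ccl12 to 0.39, and Ccl2 and Ccl7 to -0.07 and -0.13. Ccl22 was past an unadjusted 0.05 with TMM factors, with total counts and with the trend removed, and Ccl9 with the last 2.

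**Figure D4:**
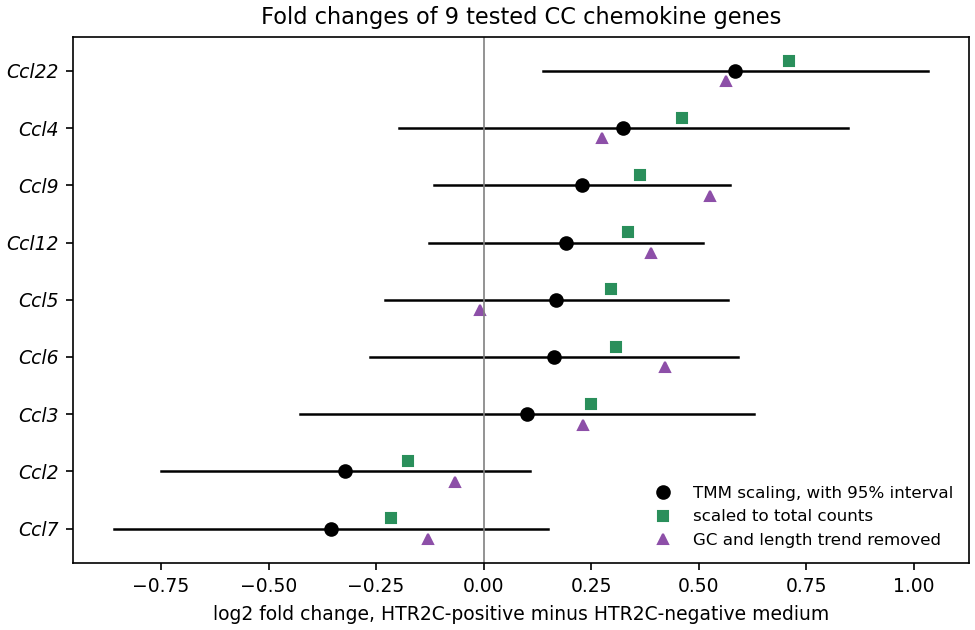
Log2 fold change of the 9 tested genes, HTR2C-positive minus HTR2C-negative medium, with TMM scaling and its 95% interval (black), scaled to total counts (green squares) and with the trend with GC content and length removed (purple triangles). The interval lies wholly above 0 for Ccl22 alone, and Ccl5 changes its side of 0 when the trend is removed.

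Of 11 further CC chemokine genes, 3 had enough counts to be tested, and for 0 of them was p below 0.05, adjusted or not. Ccl8 had a mean of 69.8 FPKM, between Ccl12 and Ccl6 in level per length. It was at 33.2 ± 5.04 and 38.1 ± 4.39 CPM (SD, n = 3, log2 fold change 0.20, SE 0.17). Its groups overlapped, but no longer did so when scaled to total counts. Ccl25, a ligand of CCR9, and Ccl24, a ligand of CCR3, were at 4.78 ± 0.675 and 4.87 ± 1.70 CPM and at 1.4997 ± 0.567 and 1.82 ± 0.670 CPM. Ccl21a, Ccl26 and Ccl28 had 0 counts in every library, and Ccl11, within the cluster of Ccl2, had 1 count in all.

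The receptors of the abundant ligands were at lower levels per length, with a mean of 53.7 FPKM for Ccr1 against 2843 FPKM for its ligand Ccl3. Of 16 CC receptor and scavenger genes, 6 could be tested, and 4 (Ccr6, Ccr8, Ccr10 and Ccr1l1) had 0 counts throughout. None of the 6 passed the correction, and 2, Ccr1 and Ccrl2, had lower values with HTR2C-positive medium by an unadjusted p below 0.05, against 8.71% of all genes in that direction. Ccr1, a receptor of Ccl3, Ccl5, Ccl6 and Ccl9, was at 207, 154 and 186 CPM in N1 to N3 and at 115, 134 and 126 CPM in P1 to P3. All HTR2C-positive libraries lay below all HTR2C-negative ones, as for 11.5% of all genes, with means of 183 ± 26.6 and 125 ± 9.54 CPM (SD, n = 3) and a log2 fold change of -0.54 (SE 0.16, edgeR adjusted p = 0.132). DESeq2 called it (adjusted p = 0.0398, 3.87% of all genes called), as did edgeR without N2 and P1 (-0.58, adjusted p = 0.00315, 10.9% called). It was -0.16 (unadjusted p = 0.270) when the GC and length trend was removed.

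Ccrl2, an atypical receptor that binds chemerin, was the most abundant of the list per length (mean 345 FPKM), at 1103, 947 and 1015 CPM against 739.6, 888 and 727 CPM. Its groups did not overlap either, and the log2 fold change was -0.38 (SE 0.15, adjusted p = 0.245). Its unadjusted p of 0.0286 became 0.0620 with the GC and length trend removed (log2 fold change -0.31), 0.0759 with total counts and 0.0856 with the replicate block, and it missed 0.05 in the leave-one-out fits without N1, N3, P1 or P3. The number of receptor genes lower at that threshold was thus 0 with the trend removed (5.46% of all genes), where Ccr1 missed it too. It was 1 with total counts (3.85% of all genes) or the block (621 of all 10177 genes). With no count filter, where genes of few counts entered too, it was 4 (950 of all 14861 genes). Ccr2, the receptor of Ccl2, Ccl7 and Ccl12, was at 22.7, 28.03 and 19.3 CPM against 23.6, 7.08 and 19.0 CPM, with P2 the lowest of all. The log2 fold change was -0.49 (SE 0.33, edgeR adjusted p = 0.476), and it was -0.14 without P2. Without P1 it was -0.82 (edgeR unadjusted p = 0.0146, adjusted p = 0.168). With no count filter it was -0.48 (edgeR unadjusted p = 0.0254, adjusted p = 0.249). Ccr3, Ccr7 and Ccr9 were under 10 CPM in every library, with overlapping groups. Ccr4, the receptor of Ccl17 and Ccl22, had 1, 0 and 8 counts in N1 to N3 and 0 in P1 to P3.

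**Figure D5:**
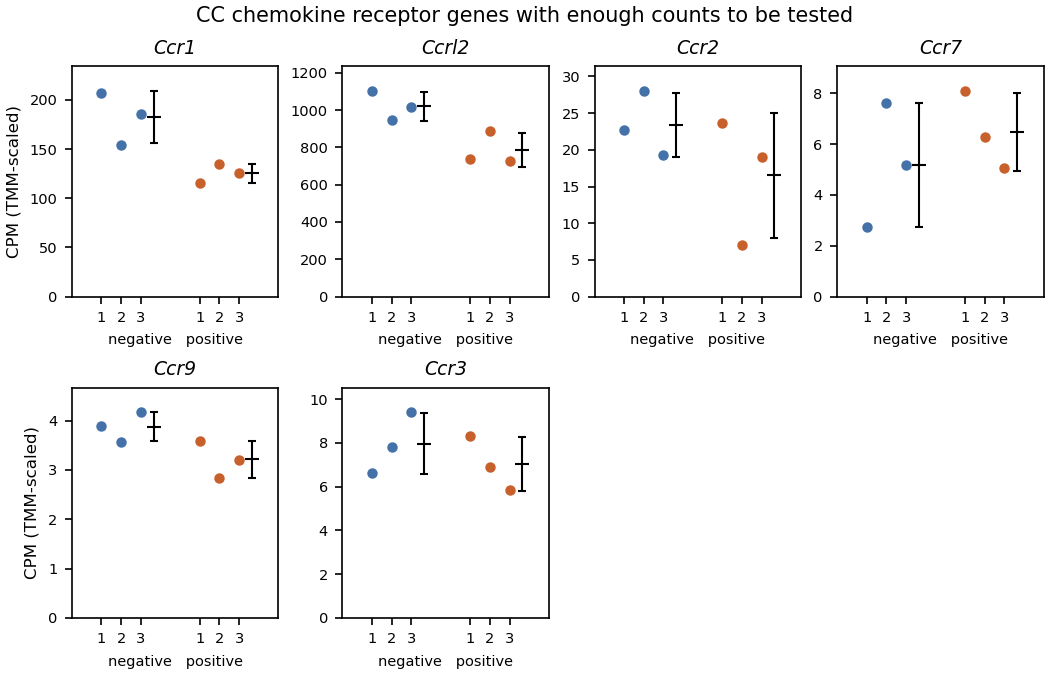
TMM-scaled CPM of the 6 described CC chemokine receptor genes with enough counts to be tested, by library number and medium (blue HTR2C-negative, orange HTR2C-positive), with group means ± SD in black. The groups are apart for Ccr1 and Ccrl2 and overlap for the other 4.

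Of 30 genes of signalling below chemokine receptors, 29 could be tested and 0 passed the correction. At an unadjusted p below 0.05, 7 had higher values with HTR2C-positive medium, against 7.90% of all genes, and 1 had lower values, against 8.71%. The number higher was 3 with the GC and length trend removed (4.34% of all genes) and 11 with total counts (11.3%). The number lower was 1 in both (5.46% and 3.85% of all genes). Leaving out N2 gave 11 higher, against 1077 of all 10477 genes (10.3%), and 3 lower, against 1020. Leaving out N3 gave 4 higher, against 537 of all 10446 genes (5.14%), and 1 lower, against 562. When both N2 and P1 were dropped, 14 signalling genes had higher values (11.2% of all genes) and 2 had lower values (12.7%). The 4 with the smallest p were 3 G protein subunit genes and 1 kinase gene. Gnai3, an inhibitory alpha subunit, was at 330.0 ± 48.8 and 185 ± 21.3 CPM (SD, n = 3, log2 fold change -0.84, SE 0.16), while its paralog Gnai2, the main one in leukocytes, was at 86.8 ± 15.0 and 138 ± 29.0 CPM (0.67, SE 0.19). The beta subunit gene Gnb2 was at 21.3 ± 3.51 and 41.1 ± 8.05 CPM (0.95, SE 0.20), and Ptk2b, a kinase of chemokine-driven adhesion, at 34.6 ± 4.09 and 57.5 ± 0.501 CPM (0.73, SE 0.15). The adjusted p was 0.0805 for Gnai3, Gnb2 and Ptk2b and 0.124 for Gnai2. DESeq2 called all 4 (3.87% of all genes called), as did edgeR with no count filter (422 of 14861 genes) and without N2 and P1 (10.9%). The 4 were picked for their small p in the same counts. Their calls therefore cannot be weighed against the shares of all genes and add no independent evidence. With no filter the test pooled the spread over genes almost fully (59444 degrees of freedom for Ccl17, against 13.0 for these genes in the main fit). Once the GC and length trend was taken out, the log2 fold changes were -0.54, 0.48, 0.43 and 0.33 for Gnai3, Gnb2, Ptk2b and Gnai2, and Gnai2 then missed even an unadjusted 0.05 (edgeR unadjusted p = 0.113, adjusted p = 0.629).

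Genes whose log2 CPM ran most like 4 of the chemokine genes were looked up among 5306 genes of at least 10 CPM, over the same 6 libraries and hence with shared depth and scaling. For Ccl5 they were Bola2, Bcl6 and Micos10 (Pearson r = 0.997, 0.987 and 0.985), and 54 genes exceeded 0.95. For Ccl2 they were Arhgap26, Cd9 and Mrpl49 (r = 0.996, 0.992 and 0.991). Ccl22 ran most like Plekhj1, Eef1d and Chchd2 (r = 0.992, 0.992 and 0.990), and Ccl3 less closely like Ubl4a, Bcl2a1a and Qtrt1 (r = 0.967, 0.964 and 0.964). These values describe the 6 libraries only.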

How the data were processed

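Per the labels' protocols, BMDM RNA was isolated with Trizol and sequenced from VAHTS Universal V6 libraries. Among the tools in the submitters' processing notes are fastp, HISAT2, StringTie and edgeR, with the build GRCm39. The sources used here do not give the annotation release, strand or the handling of multiply mapped reads. Per the file headers, each library has whole read counts and FPKM. The deposited FPKM match count over length and total count (relative difference at most 3.80e-07).

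R 4.3.3 and edgeR 4.0.16 were used on the counts (filterByExpr, TMM, robust quasi-likelihood F test, 10177 genes, Benjamini-Hochberg over all of them, threshold 0.05), after the script was tested on simulated data. CPM are TMM-scaled. Other settings tried were RLE factors, total counts, no filter, 1 CPM in 3 libraries, the tools DESeq2 (1.42.0) and limma-voom (3.58.1), a replicate block, offsets for each library's spline trend (4 df each) with GC content and length (GENCODE M21 longest transcripts, 99.9% of tested genes), leaving out each library, and leaving out N2 and P1. A count of 0 allows 3 counts, 0.171 to 0.265 CPM by library, for counting error only.

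All 10 genes were to be named, with the other CC ligands and receptors of at least 1 CPM on the mean and up to 4 signalling genes with the smallest p. Of the receptor list, 1 gene is not reported here. Members and lists were chosen with earlier results of these data known. The genes named with a count below that level, the 4 ratios, the promoter pairs, the motifs, the counts of separated groups under other scalings and the alternatives for receptors, other ligands and signalling genes were chosen after the values were seen.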

Additional observations from a re-analysis of the deposited data

How the results depend on the processing

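For the 9 tested chemokine genes the 16 alternatives kept the sign of the log2 fold change except for Ccl3 and Ccl5. Ccl5 was at -0.0094 with the GC and length trend removed and at -0.017 with the replicate block as well. Ccl3 was at -0.083 without N2 and P1 and ranged from -0.13 to 0.27 with 1 library left out, and the cause was not tested. Without N2 and P1, 1 chemokine gene (Ccl2) and 1107 of all genes passed the correction, and 2 chemokine genes (Ccl2 and Ccl7) had lower values at an unadjusted p below 0.05 (12.7% of all genes). With total counts 5 had higher values at that threshold, 4 had groups that did not overlap and the median was 0.31. With the trend removed 3 had higher values (4.34% of all genes), and with the block as well 2 (2.8%). Of all genes, 422 were called with no count filter and 394 with DESeq2. With 1 library left out, 0 to 2 chemokine genes were higher and 0 to 2 lower at that threshold, against 8.06% to 20% of all genes in either direction. In these fits 0 chemokine genes passed the correction, the median was 0.029 to 0.31 and 0 to 206 of all genes were called (206 without N2, 186 without P1). The replicate block changed no call among the chemokine genes: 1 remained higher at an unadjusted p below 0.05 (Ccl22), against 5.44% of all genes. Same-numbered libraries did not deviate together (r of deviations -0.15, -0.23 and 0.05). With 3 libraries per group these values cannot tell whether a number stands for a shared culture, animal or batch of medium. The following were added after seeing the data. Ccr3 was at 0.16 with the trend removed and 0.17 with block and trend. Ccl25 was at -0.039 with limma-voom, -0.014 with the block and -0.28 to 0.24 with 1 library left out. Ccl24 was at -0.059 to 0.58 with 1 library left out. The order of the 10 genes by level per length was the same with TPM and with TMM-scaled CPM per kilobase. These measures divide the same counts by the same lengths as FPKM, so the order within a library could not differ. Other gene lengths were not tried. By mean CPM, which ignores length, Ccl9 (1901) was level with Ccl7 (1899) and above Ccl2 (943). The 0 to 6 counts of Ccl17 limit any comparison of it.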
